A study of Homo sapiens with 16 samples.

Results

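The genes described here encode the proteins of the small nuclear ribonucleoproteins (snRNPs) and their relatives, found as the rows of the deposited count table whose symbol begins with SNRP, SNRNP, LSM, SF3A, SF3B or PRPF (for LSM, SF3A and SF3B, followed by a digit). The rule found 52 of 12676 listed genes, all protein coding, and used no measured value. Members were chosen with earlier results of these data known, and the study itself reports splicing among the pathways enriched in downregulated genes. RNA-seq was performed in duplicate on H1299, a cell line from a human non-small cell lung carcinoma, to find the genes whose expression depends on YEATS2, a histone acetyl-lysine reader of the ATAC acetyltransferase complex. In the shCtrl group, 2 libraries came from cells infected with lentivirus carrying a non-targeting pLKO shRNA, and in the shYEATS2 group, 2 libraries came from cells infected with a pLKO shRNA against YEATS2. Both groups received polybrene at 8 µg per ml during infection and puromycin at 2 µg per ml from 48 h on, for 4 to 7 days according to the labels, so each library is a selected pool of infected cells and not a clone. The study's text names shY2-1 as the hairpin of its main RNA-seq comparison, while the labels of the knockdown libraries name none. The study also reports RNA-seq with an independent hairpin of partial effect, with downregulated genes shared between the hairpins. For ribosomal protein genes it adds qRT-PCR with each hairpin and after rescue with shRNA-resistant YEATS2. Those experiments are not among the libraries analysed here. Within the 1 knockdown arm analysed, an effect of the hairpin on other transcripts cannot be told apart from that of YEATS2 loss.

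Pre-mRNA splicing is carried out by the spliceosome, which is built from the U1, U2, U4, U5 and U6 snRNPs. Each snRNP holds a small nuclear RNA, a ring of Sm proteins (LSm proteins for U6) and proteins of its own. The U1 snRNP recognises the 5′ splice site and the U2 snRNP the branch point, after which the U4/U6.U5 tri-snRNP joins and is remodelled into the catalytic machine. A minor spliceosome with U11 and U12 in place of U1 and U2 removes a rare class of introns.

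Reads in listed genes numbered from 34718921 to 39417787 per library, and the count of each library was scaled by edgeR's TMM method (factors from 0.952 to 1.05). YEATS2 itself was counted at 4482 and 4104 scaled reads in the shCtrl libraries and at 665 and 673 in the shYEATS2 libraries, a log2 fold change of -2.68 ± 0.10 (SE; quasi-likelihood FDR = 0.000583). The carcinoma line markers VIM, KRT8, KRT18, CDH2 and NRAS were counted in every library, and KRT19, EPCAM and CDH1 were not analysed here. Of 10 leukocyte and 10 fibroblast markers, 1 each was listed, and both were called higher. Every listed gene had at least 101 reads in some library. PDGFRB, the fibroblast marker, reached this only in shYEATS2 replicate 2, so its listing came from the group where it was high. ITGAM stood at 231 and 136 scaled reads in shCtrl and 426 and 507 in shYEATS2 cells (log2 fold change 1.35, quasi-likelihood FDR = 0.00613), and PDGFRB at 8.61 and 17.4 against 60.9 and 179 (3.21, quasi-likelihood FDR = 0.00757); their part in the results below was not tested. A gene is called lower or higher where edgeR's quasi-likelihood test gave a Benjamini-Hochberg adjusted p (FDR) under 0.01 over all genes. These RNA levels come from whole cultures, so fewer cells of one state and less RNA per cell cannot be told apart.

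Promoter windows of 5 members are shown because these genes carried the largest decreases in the Sm ring, the U6 LSm ring and the catalytic stage factors, a decrease in SF3b with 3 ETS words, and the only increase. The windows run from 250 bases before to 50 bases after the annotated start, 5′ to 3′ on the gene's strand (RefSeq, GRCh38.p14), with matches to any of 8 motifs in capitals. The letters searched for on both strands were CCGGAAG for ETS factors, CCAAT for NF-Y, GGGCGG for the GC box of SP1, ATGGCGG for YY1, CGCATGC for NRF1, CACGTG for the E-box, TATAAA for the TATA box and ACTACAA for the core of the ZNF143 motif, and matches of different motifs may overlap.
SNRPB (chr20:2470740-2471039, minus strand): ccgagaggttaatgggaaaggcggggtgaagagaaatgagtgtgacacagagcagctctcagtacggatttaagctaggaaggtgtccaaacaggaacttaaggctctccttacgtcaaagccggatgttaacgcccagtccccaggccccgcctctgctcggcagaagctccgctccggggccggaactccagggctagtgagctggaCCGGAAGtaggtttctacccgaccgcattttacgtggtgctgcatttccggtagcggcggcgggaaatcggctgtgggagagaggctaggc
PRPF19 (chr11:60906536-60906835, minus strand): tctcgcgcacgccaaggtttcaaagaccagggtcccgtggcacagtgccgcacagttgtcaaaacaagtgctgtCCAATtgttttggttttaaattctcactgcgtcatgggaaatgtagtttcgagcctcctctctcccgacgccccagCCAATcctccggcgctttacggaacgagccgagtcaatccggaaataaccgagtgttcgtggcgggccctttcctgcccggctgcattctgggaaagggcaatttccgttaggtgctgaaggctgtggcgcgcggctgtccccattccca
LSM5 (chr7:32490331-32490630, minus strand): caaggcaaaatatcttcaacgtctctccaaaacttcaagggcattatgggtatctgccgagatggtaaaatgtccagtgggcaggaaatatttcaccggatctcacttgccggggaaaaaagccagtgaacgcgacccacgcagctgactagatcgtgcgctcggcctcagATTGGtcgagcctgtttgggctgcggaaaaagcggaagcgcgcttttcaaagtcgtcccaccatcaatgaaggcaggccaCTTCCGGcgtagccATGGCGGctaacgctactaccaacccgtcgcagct
SF3B14 (chr2:24076277-24076576, minus strand): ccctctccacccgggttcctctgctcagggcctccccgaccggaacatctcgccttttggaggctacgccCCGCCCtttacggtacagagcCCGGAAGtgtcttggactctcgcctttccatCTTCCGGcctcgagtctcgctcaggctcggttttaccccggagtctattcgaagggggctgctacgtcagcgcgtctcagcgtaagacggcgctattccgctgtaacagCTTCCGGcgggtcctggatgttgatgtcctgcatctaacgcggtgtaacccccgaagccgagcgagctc
LSM14B (chr20:62122225-62122524, plus strand): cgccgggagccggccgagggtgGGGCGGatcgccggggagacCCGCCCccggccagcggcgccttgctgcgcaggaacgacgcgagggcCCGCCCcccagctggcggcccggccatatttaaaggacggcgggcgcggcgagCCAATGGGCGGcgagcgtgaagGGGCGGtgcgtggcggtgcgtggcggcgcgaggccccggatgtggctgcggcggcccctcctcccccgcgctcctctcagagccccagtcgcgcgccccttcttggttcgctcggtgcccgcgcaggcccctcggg
The SNRPB window holds 1 ETS word, PRPF19 a pair of CCAAT boxes, LSM5 a CCAAT box, an ETS and a YY1 word, SF3B14 3 ETS words and a GC box, and LSM14B GC boxes and a CCAAT box that abuts one of them.

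Across the 52 members, 18 were called lower and 1 higher in shYEATS2 cells. Lower members made up 34.6%, against a background of 12.5% of all genes called lower, and the higher one 1.92% against 12.9% of all genes called higher. Log2 fold changes had a median of -0.39 among the members and of -0.0019 among all genes, and 46 of 52 values were negative. Both shYEATS2 libraries lay below both shCtrl libraries for 42 members (80.8%; all genes 39.8%), above them for 3, and overlapped for 7. At an unadjusted p under 0.05, 35 members were lower and 1 was higher, where 27.8% of all genes were lower and 28.7% higher. Mean scaled counts ran from 239 for PRPF18 to 26061 for PRPF8, so no member was near the lower limit of the table.

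With shCtrl replicate 1 or 2 left out, 6 and 5 members were called lower (11.5% and 9.62%) against 6.71% and 7.25% of all genes, in fits that assume the lone control to vary like the knockdown pair. Scaling by total counts moved the median of all genes to 0.12 and that of the members to -0.27, with 14 members (26.9%) and 9.2% of all genes called lower. Under it 67.0% of all calls were higher, against 50.8% with TMM. DESeq2 called 25 members lower (48.1%, against 17.3% of all genes) and edgeR's exactTest with TMM 27 (51.9%, against 19.7%). SNRPB, SNRPA, LSM5 and PRPF19 were the 4 members called lower in each of the 17 alternatives. Among these, the fit without a filter equals the main fit, and an FDR under 0.05 can only add calls to it.

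**Figure D1:**
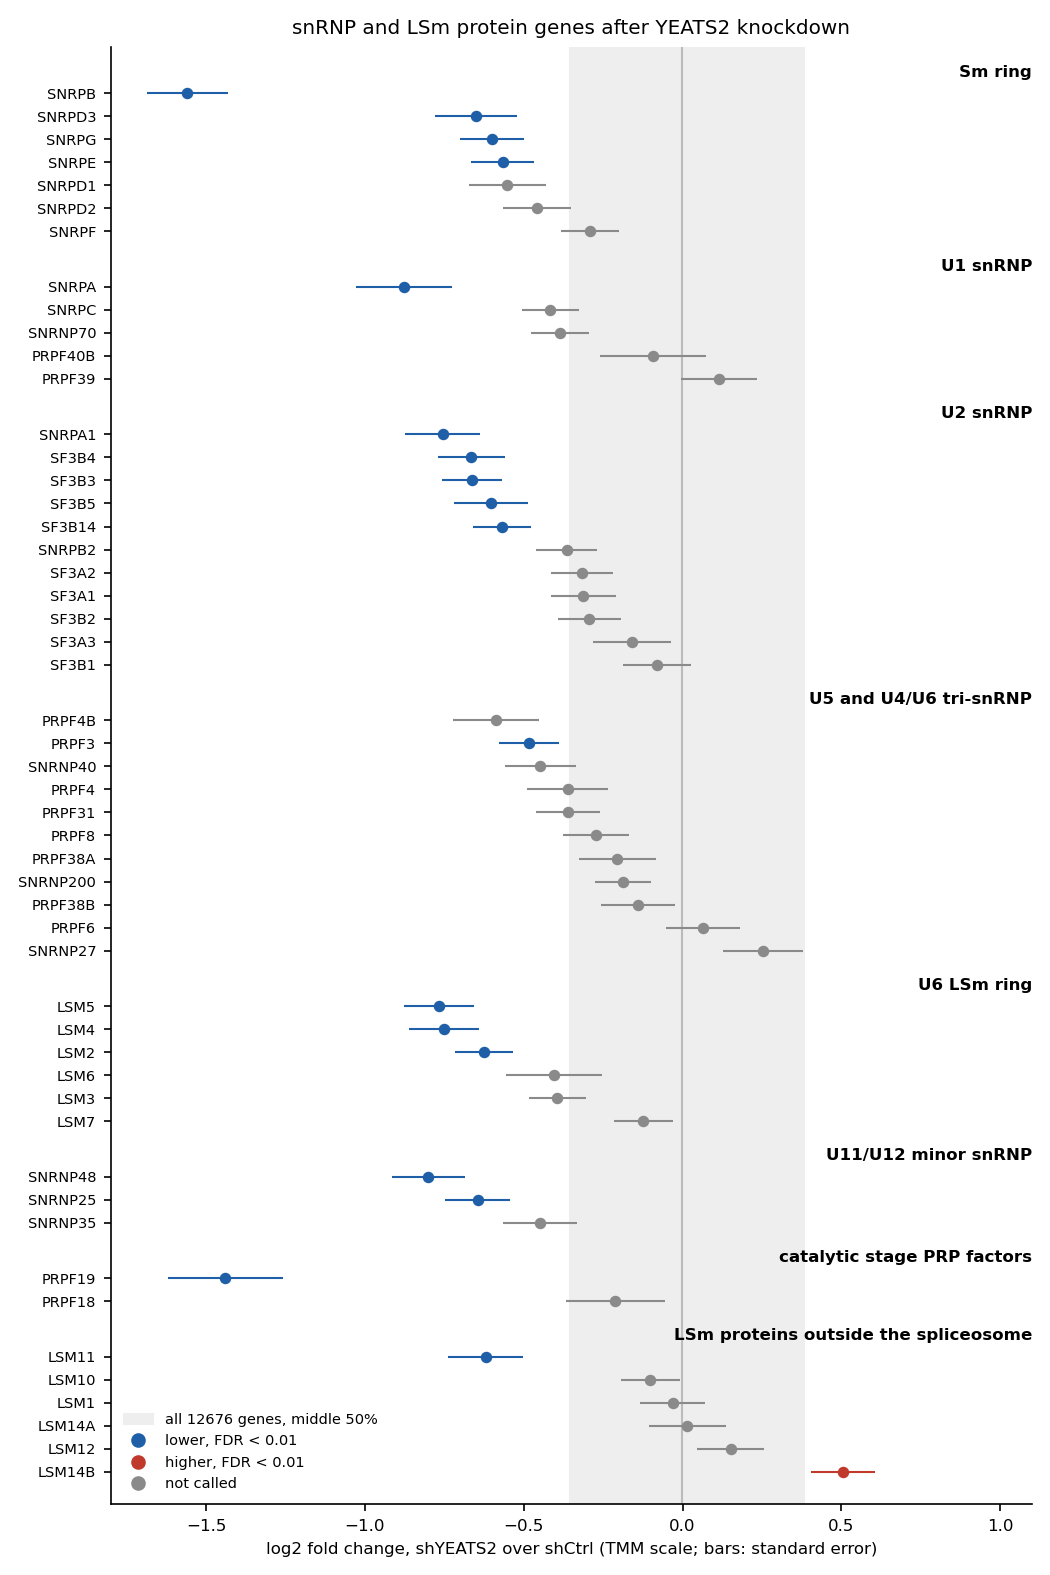
Log2 fold change of the members whose values are reported, shYEATS2 over shCtrl on the TMM scale (horizontal axis), by role group, with standard errors as bars; the grey band spans the lower to the upper quartile of all 12676 genes. Blue points mark the 18 genes called lower, the red point LSM14B, and grey points the others; SNRPB and PRPF19 sit apart at the left, at -1.56 and -1.44.

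The Sm ring, the 7-membered ring that closes around the U1, U2, U4 and U5 RNAs, was lower throughout. Both shYEATS2 libraries lay below both shCtrl libraries for 7 of 7 genes (all genes 39.8%). Of the 7, 4 were called lower, where 12.5% of all genes were, and the median log2 fold change was -0.57. SNRPB, which encodes the B and B′ proteins of the ring, had the largest decrease of all members. Scaled reads were 15596 and 16058 under shCtrl and 5963 and 4780 under shYEATS2. The knockdown mean was 33.9% of the control mean (log2 fold change -1.56 ± 0.13, SE; quasi-likelihood FDR = 0.000881), and 0.899% of all genes had a lower log2 fold change. The gene lies at chr20:2442280-2451499 on the minus strand (GRCh37). Its near-identical relative SNRPN was not analysed here, and reads shared by both could be lost or split in counting.

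SNRPD3, a core ring protein that pairs with B, was counted at 5001 and 4644 reads in shCtrl and 3422 and 2728 in shYEATS2 cells (log2 fold change -0.65 ± 0.13, quasi-likelihood FDR = 0.00753). SNRPG stood at 5081 and 5106 against 3567 and 3155 (-0.60 ± 0.10, quasi-likelihood FDR = 0.00432). SNRPE stood at 2775 and 2806 against 1980 and 1789 (-0.57 ± 0.10, quasi-likelihood FDR = 0.00471). The control pair was tight for SNRPG and SNRPE and wider for SNRPD3. In each of these genes both knockdown libraries lay well beneath the control pair. SNRPD1 (3731 and 3551 against 2735 and 2236), SNRPD2 (22434 and 22057 against 17399 and 14980) and SNRPF (3861 and 3836 against 3203 and 3086) did not pass, with quasi-likelihood FDR values of 0.0108, 0.0131 and 0.0352. Beside the ring, SNRPG, SNRPE and SNRPF have 20, 10 and 4 annotated pseudogenes named after them, none of which is listed, so their counts are uncertain to the extent that reads from near-identical copies were mapped or dropped.

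Per length, on the scale of TMM-scaled CPM per kb of the Ensembl canonical transcript, SNRPB was the ring gene with the second highest level in shCtrl cells, 396 and 407, after SNRPD2 with 1196 and 1176. In shYEATS2 cells SNRPB stood at 151 and 121, below SNRPF at 195 and 187 and overlapping SNRPG at 165 and 146. This order depends on the transcript chosen, since canonical lengths within the ring ran from 452 to 4858 bases. The summed scaled counts of the 7 ring genes were 58479 and 58058 in shCtrl and 38269 and 32752 in shYEATS2 libraries, and the knockdown mean was 60.9% of the control mean.

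Of the 6 U1 genes, SNRPA was called lower (16.7%, where 12.5% of all genes were). It encodes the A protein of U1, which binds a stem loop of U1 RNA, and was counted at 5796 and 5611 reads in shCtrl and 3580 and 2629 in shYEATS2 libraries (log2 fold change -0.88 ± 0.15, quasi-likelihood FDR = 0.00462). The spread between the knockdown libraries was wide here, and both still lay far below the controls. SNRPC, the C protein of U1, at 8426 and 8829 against 6478 and 6456, narrowly missed the threshold (-0.42, quasi-likelihood FDR = 0.0102), and SNRNP70 (U1-70K) had a log2 fold change of -0.38 with a quasi-likelihood FDR of 0.0143. SNRPC has 18 annotated pseudogenes. The U1-associated factors PRPF40B and PRPF39 had values of -0.09 and 0.12, and the libraries of both overlapped between groups: PRPF39 stood at 881 and 766 against 924 and 861.

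Among the 11 U2 genes, 5 were called lower, where 12.5% of all genes were, and 11 of 11 log2 fold changes were negative (median -0.37). SNRPA1, the A′ protein of U2 that binds the RNA together with B″, had the lowest value of the group, with 3084 and 2676 reads in shCtrl and 1823 and 1590 in shYEATS2 cells (-0.76 ± 0.12, quasi-likelihood FDR = 0.00353). Its binding partner SNRPB2 (B″) had -0.37 (quasi-likelihood FDR = 0.0206). The other 4 belong to SF3b, the subcomplex that holds the branch point. SF3B4 stood at 8100 and 7827 against 5382 and 4665 (-0.66 ± 0.11, quasi-likelihood FDR = 0.00366). SF3B3, its large scaffold protein, stood at 13225 and 13302 against 8713 and 8041 (-0.66 ± 0.09, quasi-likelihood FDR = 0.00258). SF3B5, a small subunit encoded by 1 exon, stood at 6293 and 6407 against 4585 and 3780 (-0.60 ± 0.12, quasi-likelihood FDR = 0.00685). SF3B14, the older symbol of SF3B6 and the subunit that contacts the branch point adenosine, stood at 4721 and 4750 against 3287 and 3104 (-0.57 ± 0.09, quasi-likelihood FDR = 0.00383).

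SF3b was uneven. SF3B1, the subunit that is often mutated in cancer, was counted at 15493 and 13250 in shCtrl and 13819 and 13362 in shYEATS2 libraries, which overlap (log2 fold change -0.08 ± 0.11, quasi-likelihood FDR = 0.561), and SF3B2 had -0.29 (quasi-likelihood FDR = 0.0480). A test between subunits was not run. The 3 SF3a genes, which link SF3b to the rest of the U2 snRNP, had values from -0.32 to -0.16 (SF3A2 and SF3A3), of which 2 had an unadjusted p under 0.05 and none was called by edgeR's quasi-likelihood test or by DESeq2.

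Among the 11 genes of the U5 snRNP and the tri-snRNP, 1 was called lower, close to the background share, and the median was -0.27. PRPF3, a U4/U6 protein mutated in a form of retinitis pigmentosa, stood at 3440 and 3215 in shCtrl and 2364 and 2393 in shYEATS2 libraries (log2 fold change -0.48 ± 0.09, quasi-likelihood FDR = 0.00712). PRPF4B, a kinase associated with the tri-snRNP, had the lowest value, 6243 and 5594 against 4400 and 3475, and did not pass (-0.59 ± 0.13, quasi-likelihood FDR = 0.0125). PRPF8, the scaffold around the catalytic centre and the most counted member, stood at 28460 and 28576 against 21972 and 25235 (-0.27 ± 0.10, quasi-likelihood FDR = 0.0666). The U5 helicase SNRNP200, which unwinds U4 from U6, had -0.19 (quasi-likelihood FDR = 0.119). SNRNP27 had the highest value of the group, with both knockdown libraries above the controls, 1088 and 1129 against 1184 and 1457 (0.25 ± 0.13, quasi-likelihood FDR = 0.139). Summed over the group, counts were 91028 and 87631 in shCtrl and 74328 and 76782 in shYEATS2 libraries, or 84.6% of the control mean, the highest ratio among the spliceosomal groups.

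**Figure D2:**
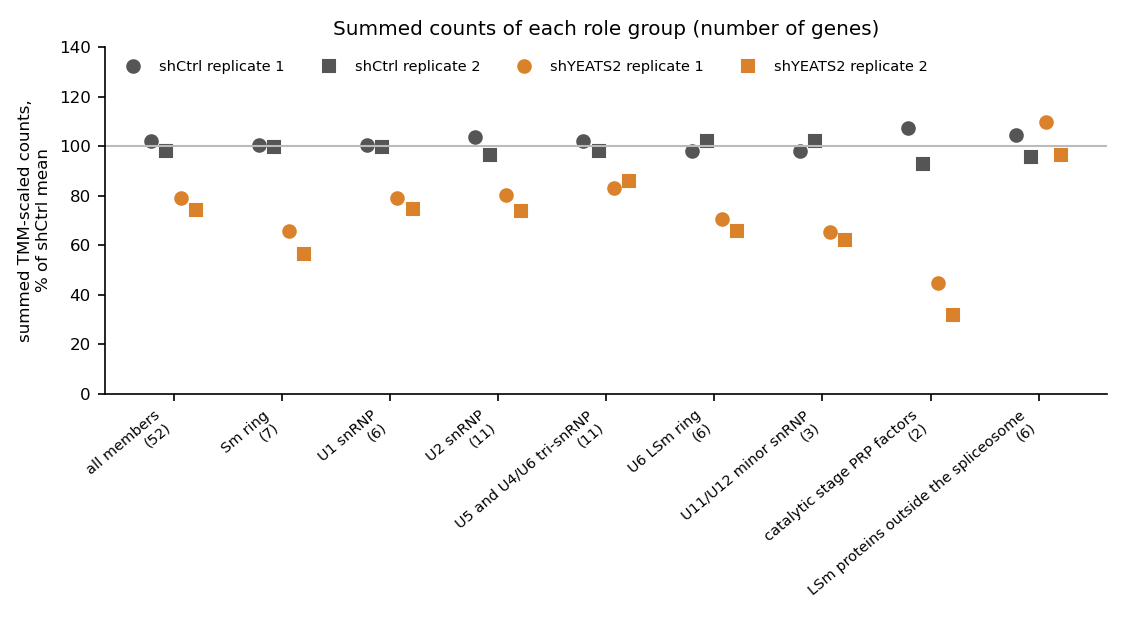
Summed TMM-scaled counts of each role group in each library (vertical axis, percent of the mean of the 2 shCtrl libraries; number of genes below each name); circles are replicate 1 and squares replicate 2, grey shCtrl and orange shYEATS2. The shYEATS2 points lie below the shCtrl points in every group but the LSm proteins outside the spliceosome, with group means from 38.2% (catalytic stage factors) to 84.6% (tri-snRNP). Of the 2 catalytic stage genes, PRPF19 gave 9026 of the 9283 scaled reads in the shCtrl mean, and PRPF18 alone stood at 86.4% of control.

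The LSm ring of LSM2 to LSM8 binds the 3′ end of U6 RNA. Of its 6 members found by symbol, 3 were called lower, where 12.5% of all genes were. Both shYEATS2 libraries lay below both shCtrl libraries for 6 of 6 (all genes 39.8%), and the median log2 fold change was -0.52. LSM5 stood at 2407 and 2427 in shCtrl and 1533 and 1308 in shYEATS2 libraries (-0.77 ± 0.11, quasi-likelihood FDR = 0.00258). LSM4 stood at 5073 and 5786 against 3382 and 3070 (-0.75 ± 0.11, quasi-likelihood FDR = 0.00279), and LSM2 at 2410 and 2382 against 1588 and 1519 (-0.63 ± 0.09, quasi-likelihood FDR = 0.00279). The 3 genes had both knockdown libraries far below the control pair. LSM3, at -0.39 (quasi-likelihood FDR = 0.0124), LSM6, at -0.41 (quasi-likelihood FDR = 0.0631), and LSM7, at 2362 and 2330 against 2226 and 2079 reads (-0.12, quasi-likelihood FDR = 0.298), did not pass. LSM8, which gives the nuclear ring its identity, is listed under the older symbol NAA38 and so was not found by the rule. It stood at 1447 and 1526 against 1052 and 973 and was called lower (-0.55 ± 0.10, quasi-likelihood FDR = 0.00603). LSM1, which replaces LSM8 in the cytoplasmic ring that acts in mRNA decay, stood at 879 and 895 against 866 and 871 (-0.03 ± 0.10, quasi-likelihood FDR = 0.820).

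Of the 3 proteins particular to the U11/U12 snRNP, 2 were called lower, where 12.5% of all genes were. SNRNP48 stood at 997 and 1122 reads in shCtrl and 626 and 591 in shYEATS2 libraries (log2 fold change -0.80 ± 0.12, quasi-likelihood FDR = 0.00279). SNRNP25 stood at 1541 and 1546 against 1032 and 943 (-0.64 ± 0.10, quasi-likelihood FDR = 0.00365). SNRNP35, the minor counterpart of U1-70K, had 604 and 598 against 433 and 447 and did not pass (-0.45 ± 0.12, quasi-likelihood FDR = 0.0192). For each of the 3 genes both shYEATS2 libraries lay below both shCtrl libraries (all genes 39.8%), although these are among the less abundant members.

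PRPF19, the ubiquitin ligase that names the PRP19 complex of the activated spliceosome, had the second largest decrease. It stood at 9724 and 8329 reads in shCtrl and 3928 and 2728 in shYEATS2 libraries, 36.9% of the control mean (log2 fold change -1.44 ± 0.18, quasi-likelihood FDR = 0.00182). The gene lies at chr11:60658019-60674057 on the minus strand (GRCh37). Both pairs of replicates were spread, and the higher knockdown library still lay far below the lower control. PRPF18, which acts in the second step of splicing, had the lowest count of all members, 246 and 267 against 213 and 230 (-0.21 ± 0.16, quasi-likelihood FDR = 0.291).

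**Figure D3:**
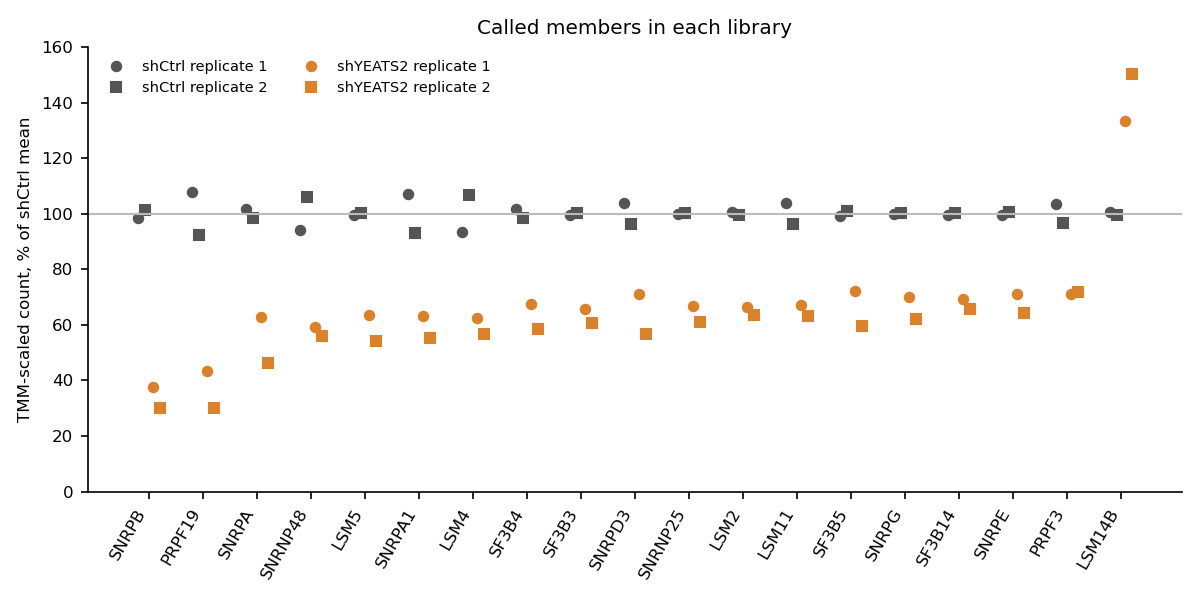
TMM-scaled count of the 19 called members in each library (vertical axis, percent of the shCtrl mean of that gene, so the control pair is centred on 100 by construction), ordered by log2 fold change; grey marks are shCtrl, orange marks shYEATS2, circles replicate 1 and squares replicate 2. SNRPB and PRPF19 fall to 33.9% and 36.9% of the control mean, and LSM14B rises to 142%.

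The LSm proteins that work outside the spliceosome did not share the decrease in their median. Their 6 members had a median log2 fold change of -0.0082, with 1 called lower and 1 called higher (all genes 12.5% and 12.9%). Their summed counts were 27335 and 25051 in shCtrl and 28690 and 25266 in shYEATS2 libraries. LSM11, a ring protein of the U7 snRNP that processes histone mRNA ends, was lower, at 725 and 672 against 468 and 441 (-0.62 ± 0.12, quasi-likelihood FDR = 0.00675). Its U7 partner LSM10 stood at 1489 and 1480 against 1376 and 1390 (-0.10 ± 0.09, quasi-likelihood FDR = 0.388). LSM14B, an RNA-binding protein of the kind that represses translation in cytoplasmic granules, was the only member called higher, at 1511 and 1492 against 2004 and 2254 (0.50 ± 0.10, quasi-likelihood FDR = 0.00777, chr20:60697517-60710430 on the plus strand, GRCh37). Its more abundant paralog LSM14A stood at 19490 and 17694 against 20559 and 17000, which overlap (0.01 ± 0.12, quasi-likelihood FDR = 0.932). Without these 6 genes, 17 of 46 members were called lower (37.0%, where 12.5% of all genes were) and the median was -0.41.

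Summed over the 52 members, scaled counts were 326838 and 313360 in shCtrl and 253171 and 237475 in shYEATS2 libraries. The knockdown mean was 76.6% of the control mean (log2 ratio -0.38; exact two-sided permutation test over libraries, p = 0.33, the smallest that 2 against 2 allows). As a share of reads in listed genes, without TMM, the members took 0.854% and 0.832% in shCtrl and 0.722% and 0.681% in shYEATS2 libraries. The knockdown libraries differed from each other within the members: replicate 2 was lower than replicate 1 for 41 of 52, with a median log2 difference of -0.11 where that of all genes was -0.0041. In the shCtrl pair, replicate 2 was lower for 34 of 52, with a median of -0.03.

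**Figure D4:**
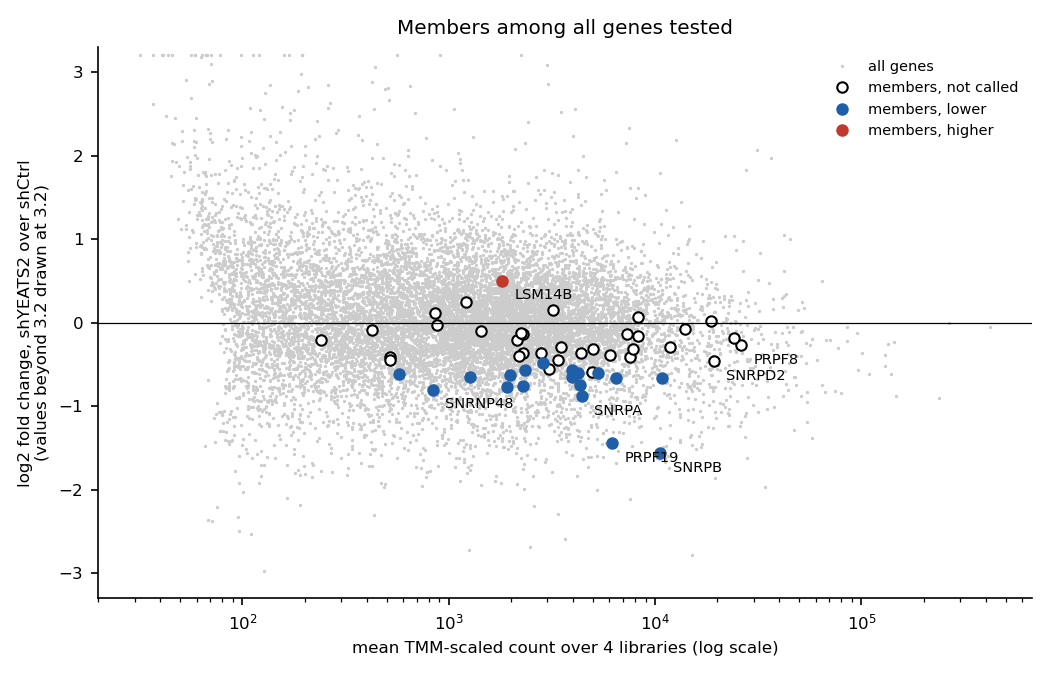
Log2 fold change (vertical axis, values beyond 3.2 drawn at 3.2) against mean TMM-scaled count over the 4 libraries (horizontal axis, log scale) for all 12676 genes (grey) and the 52 members (filled blue, lower; filled red, higher; open, not called). Members span mean counts from 239 to 26061, and the 18 lower ones run from 576 (LSM11) to 10820 (SF3B3).

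Genes of the splicing machinery that bear other names were examined in 4 lists, of which 83 of 87 genes were listed. In these, 13 (15.7%) were called lower, where 12.5% of all genes were, and the median was -0.24. The count and its distance from the background moved with the method: 21 (25.3%) against 17.3% with DESeq2, 24 (28.9%) against 19.7% with exactTest and TMM, 31 (37.3%) against 23.8% at an FDR under 0.05, and 8 (9.64%) against 9.2% with total counts. The share lay below the background with the trend in length, GC content and mean count removed, at 9 (10.8%) against 12%. It also did so for changes of at least 1.5-fold, at 7 (8.43%) against 10.7%. Without shCtrl replicate 1, shCtrl replicate 2 or shYEATS2 replicate 2, the share of these genes called lower was not above that of all genes. Without shYEATS2 replicate 1 it was above. Each of these fits has 1 library in a group. At an unadjusted p under 0.05, 41 were lower, where 27.8% of all genes were, and 1 was higher, TXNL4B, which edgeR's quasi-likelihood test and limma did not call and DESeq2 did. Among snRNP partners, 3 of 22 were called lower (13.6%, near the 12.5% of all genes). Values ran from -0.72 for PPIH, a cyclophilin of the tri-snRNP, to 0.44 for TXNL4B, a relative of the U5 protein Dim1. Among branch site and U2 recruitment factors, 3 of 11 were called lower (27.3%), with a median of -0.48 and the highest value, 0.04, for U2SURP. Among PRP19 and later complex factors, 4 of 27 were called lower (14.8%, near the share of all genes), with a median of -0.07. Values ran from -1.23 for the cyclophilin PPIL1 (4502 and 4032 against 2145 and 1504) to 0.21 for the helicase DHX8. Among snRNP assembly factors, 3 of 23 were called lower (13.0%, near the share of all genes). The lowest value was -1.02 for GEMIN6, a subunit of the SMN complex that loads Sm proteins onto RNA (1418 and 1261 against 715 and 602). The highest was 0.17 for the import adaptor SNUPN.

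Proliferation markers and interferon-induced genes were set beside the members. Of 20 proliferation markers, 18 were called lower (90%, where 12.5% of all genes were), from -1.74 for RRM2 to -1.01 for CCNB2. The highest value in the list was -0.96 for MCM5, which was not called. Their summed scaled counts were 259120 and 264773 in shCtrl and 114983 and 88679 in shYEATS2 libraries. In that sum replicate 2 was the lower of the knockdown libraries, as in most members. CCNB1, PLK1, AURKA, AURKB and BIRC5 had the opposite order. Of the shCtrl libraries, replicate 2 was the higher in the sum of the markers and the lower in that of the members. Of 20 interferon-induced genes, 13 were listed and 4 were called higher (30.8%, where 12.9% of all genes were). Every listed gene had at least 101 reads in some library, which OASL, IFI44 and OAS2 reached only in shYEATS2 replicate 2. OASL and IFI44 are among the 4 called, so the share called higher depends in part on this floor. Sums of the 13 listed genes were 9426 and 9201 in shCtrl and 11282 and 20406 in shYEATS2 libraries. OAS3 had the lowest value in that list, -0.51, and OASL the highest, with scaled counts of 0 and 2.17 in shCtrl and 78.6 and 369 in shYEATS2 libraries. The part of either list in the change of the members was not tested.

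Features not used by the rule were set beside the changes. Among the 52 members, log2 fold change had a Spearman correlation of -0.06 with mean count, 0.20 with canonical transcript length, -0.08 with GC content and 0.26 with the number of exons, as a description across genes that share the same 4 libraries. Members with transcripts under 2000 bases were called lower in 11 of 24 cases and longer ones in 7 of 28, against 13.6% and 12.2% of all genes in these length classes. Of 19 members with an annotated pseudogene (74 pseudogenes in all), 6 were called lower, and of the 33 others 12 were (all genes 12.5%). The medians were -0.42 and -0.36. Exons of PRPF31, PRPF39, PRPF40B, SF3A1, SF3A2 and LSM1 overlap those of a gene on the opposite strand, and since the library kit does not keep strand their reads cannot be told apart there; none of these 6 was called by edgeR's quasi-likelihood test or by DESeq2, and 3 had an unadjusted p under 0.05.

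Promoter windows were available for 42 members. The ETS word was found in 18 of them (42.9%), against 20.4% of the windows of tested genes and 10.7% of all 27305 windows. It occurred in 7 of 16 members called lower and in 11 of 26 others, with median log2 fold changes of -0.39 with the word and -0.37 without. The CCAAT box was found in 45.2% of members and 37.2% of tested genes, the GC box in 64.3% and 71.8%, and the YY1 word in 19% and 11%. The NRF1, E-box, TATA and ZNF143 words were found in 1 to 3 members each. The windows with and without each word were not tested against each other, and a match of letters is not a bound site.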

How the data were processed

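RNA-seq libraries (TruSeq mRNA v2, not strand-specific) of H1299 cells with shCtrl or shYEATS2 were grouped and numbered by their labels; the study describes the duplicates as biological replicates. According to the methods, the RNA-Seq unified mapper placed reads on hg19 (the submitters' processing notes name TopHat2 2.0.10), and the authors deposited whole-number read counts per gene from HTSeq 0.6.1p1. The annotation is not given in the sources used here. Every listed gene has at least 101 reads in some library, so less expressed genes were not analysed here. The deposited table also holds the authors' log2 fold changes, p-values and FDR values, which were not used. ChIP-seq samples were not analysed here.

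Counts were tested with edgeR 4.0.16 (R 4.3.3): TMM scaling, at least 10 reads in at least 2 libraries (all 12676 genes), the quasi-likelihood test without a replicate block, Benjamini-Hochberg adjustment over all genes and an FDR under 0.01. The test was also run on simulated counts with few genes changed and no deviations shared by same-numbered libraries, unlike these data. The common biological coefficient of variation was 0.107, and log2 fold changes had a median standard error of 0.12. Replicates differed by more than counting noise (chi-square per degree of freedom 17.9 in shCtrl, 38.0 in shYEATS2), so none was a repeat deposit. Alternatives were DESeq2 1.42.0, exactTest, limma-trend (limma 3.58.1), other scalings, filters and thresholds, a replicate block, each library left out, and removal of the trend with transcript length, GC content and mean count.

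Gene positions, transcripts and overlaps came from GENCODE v44 lifted to GRCh37, which gave a transcript for 12392 genes (97.8%), and promoters from RefSeq (GRCh38.p14). Members, gene lists and motifs were chosen with earlier results of these data known. Library values were given for called members and for the lowest and highest member of each role group, with others named by role. Some results on single genes are not reported here.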

Additional observations from a re-analysis of the deposited data

How the results depend on the processing

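Over the 17 alternatives, 4 members were called in each, 18 in none and 30 in some. The alternatives are not independent, since the one without a filter equals the main fit and the thresholds reuse it. The median log2 fold change of the members stayed negative throughout, and was -0.27 with total counts or with exactTest on column totals and -0.29 with the trend in length, GC content and mean count removed. The last of these called 13 members lower (25%, where 12% of all genes were) and 0 higher (all genes 11.6%). The summed log2 ratio of the members was -0.26 with total counts. Genes called lower and higher numbered 2497 and 2596 with exactTest on TMM, and 3464 were higher with exactTest on column totals. At an FDR under 0.05, 3011 (23.8%) were lower and 3093 (24.4%) higher, and 32 members (61.5%) were lower. A change of at least 1.5-fold left 15 members lower (28.8%) and 0 higher, where 10.7% of all genes were lower and 10.7% higher. The other spliceosome genes called lower numbered 21 with DESeq2, 24 with exactTest on TMM, 8 with total counts, 31 at an FDR under 0.05 and 7 at 1.5-fold, and 1 was higher with DESeq2, with both forms of exactTest, with total counts, with the upper quartile and at an FDR under 0.05. The cause of these shifts was not tested.

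The labels give replicate numbers 1 and 2 in both groups, but nothing says that a number marks a shared culture. The deviations of same-numbered libraries from their group means had a Pearson correlation of 0.40 across genes. With the replicate block, 29 members were called lower (55.8%) and 1 higher, 2715 of all genes were lower (21.4%) and 2742 higher, and 26 of the other spliceosome genes were lower (31.3%) and 1 higher.

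With each library left out in turn, 5 to 20 members were called lower and 0 to 1 higher, 850 to 2024 of all genes were lower and 775 to 1971 higher, and 3 to 17 of the other spliceosome genes were lower. The median log2 fold change of the members was -0.36 without shYEATS2 replicate 2, and -0.35 and -0.42 without shCtrl replicate 1 or 2. All of these have 1 library in a group, which was assumed to vary like the other group.

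Sign changes occurred only in members called in no alternative. With total counts and with exactTest on column totals alike, PRPF40B had 0.026 and 0.025, SF3B1 0.040, LSM10 0.017 and LSM1 0.089. With the trend removed, SF3B1 had 0.081 and LSM1 0.10. With single libraries left out, PRPF40B ranged from -0.28 to 0.12, SF3B1 from -0.19 to 0.032, PRPF6 from -0.079 to 0.20 and LSM14A from -0.13 to 0.15. With 2 libraries a group, the spread between replicates limits the test more than depth does, since the least counted member had a mean of 239 scaled reads.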
